A study of Aspergillus nidulans with 8 samples.

Results

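Colonies of the filamentous fungus Aspergillus nidulans grown for 8 days on CYA and for 10 days on YES had similar transcript profiles, and these 2 late arrays are described here against the arrays of CYAs at days 4 and 10. They are 4 of the 8 arrays of the series, and they were chosen because their measured values were known to look alike, so every difference between them is a description and no test was made. Of 11109 genes with a usable level, 940 were higher on both late arrays (8.46%) and 788 were lower on both (7.09%). A gene counts as higher where the lower of its 2 late levels lay at least 1 log2 unit (2-fold) above the higher of its 2 CYAs levels, and as lower in the mirrored case; this distance is called the gap.

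The study grew stab-inoculated colonies at 32 °C in darkness on the solid media CYAs, YES and CYA, whose names the labels do not spell out, and hybridised total RNA of whole scraped colonies to 1-colour arrays. CYAs and CYA were sampled at days 4, 8 and 10 and YES at days 4 and 10, with 1 array per medium and day. The YES samples are titled YESs but described as YES. Whether that s means the same as in CYAs is not given. The labels name no strain, mutation or treatment, so the groups are defined by medium and age alone, and all of them share temperature and darkness. With 1 array per medium and day there is no replicate error, and none of the values below has one. A whole colony holds hyphae, asexual spores and, later, fruiting bodies, and fewer cells of a type and less RNA per cell cannot be told apart in such material.

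A. nidulans colonies age through overlapping programmes. Early asexual development makes conidia, airborne spores whose wall carries a pigment and a coat of water-repellent hydrophobins. In the dark, sexual development follows, in which fruiting bodies form among thick-walled Hülle cells, and old colonies also digest their own hyphae with secreted hydrolases. Secondary metabolites such as sterigmatocystin are made by enzymes whose genes lie side by side in clusters and are switched on and off together, often with development.

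Levels are log2 signals relative to the 75th percentile of each array, so 0 is that percentile, and each gene's level is the mean of its probes, usually 3. That percentile corresponded to raw signals of 1483 (CYAs day 10) to 4977 (YES day 10). No spot was saturated, and each array measured 10878 to 11114 genes well above background on at least 1 probe. The lowest signal of a probe well above background lay between -8.44 (YES day 10) and -7.16 (YES day 4). Gene levels below that of their array are at the limit of reading. The number of arrays limits the precision. The arrays lay on 2 slides. CYA day 8 and YES day 10 shared slide 1 with CYA day 4 and YES day 4, and the 3 CYAs arrays shared slide 2 with CYA day 10. Slide and medium therefore cannot be told apart in the late arrays against the CYAs arrays, whose days 4 and 10 span the late days 8 and 10, and differences from the day 4 array of the same medium, which lie within slide 1, are given beside them. As a sign of RNA or labelling quality, the 3' probe minus the 5' probe of 3823 genes, relative to the mean of the arrays, was -0.18 on CYA day 8, 0.04 on YES day 10, 0.09 on CYAs day 4 and 0.12 on CYAs day 10. The 2 late arrays stood further apart from each other in this measure than YES day 10 stood from either CYAs array, and its part in the results was not tested.

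The remaining CYAs array, day 8, stands apart and is not among the 4. In the 180 genes whose CYA day 8 level exceeded both compared CYAs levels at least 16-fold, its raw signal was 0.215 of that of CYA day 8 (median over genes), with a narrow 25th to 75th percentile of 0.2 to 0.229. The same share was 0.0327 on CYA day 10, with the wider range of 0.0194 to 0.0653, and 0.00817 on CYAs day 4. After scaling to the 75th percentile the shares were 0.217 on CYAs day 8, 0.0558 on CYA day 10 and 0.00949 on CYAs day 4. With CYAs day 8 added to the reference arrays, 804 genes were higher and 648 lower on both late arrays. What this array's share comes from, and whether its material matches its label, was not tested, and the levels given for CYAs day 8 below are those of the array so labelled.

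Across all genes the levels of CYA day 8 and YES day 10 correlated at r = 0.951, which is a description across genes that are not independent. For each of the 2 late arrays this was the highest correlation with any other array. The next was with CYAs day 8 (0.912 for CYA day 8 and 0.892 for YES day 10), and those with CYAs day 4 were 0.815 and 0.809. The day 4 arrays of the 3 media correlated with each other at 0.954 to 0.956, slightly above the late pair. Between the late arrays, 13.6% of genes differed by at least 1 log2 unit.

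**Figure D1:**
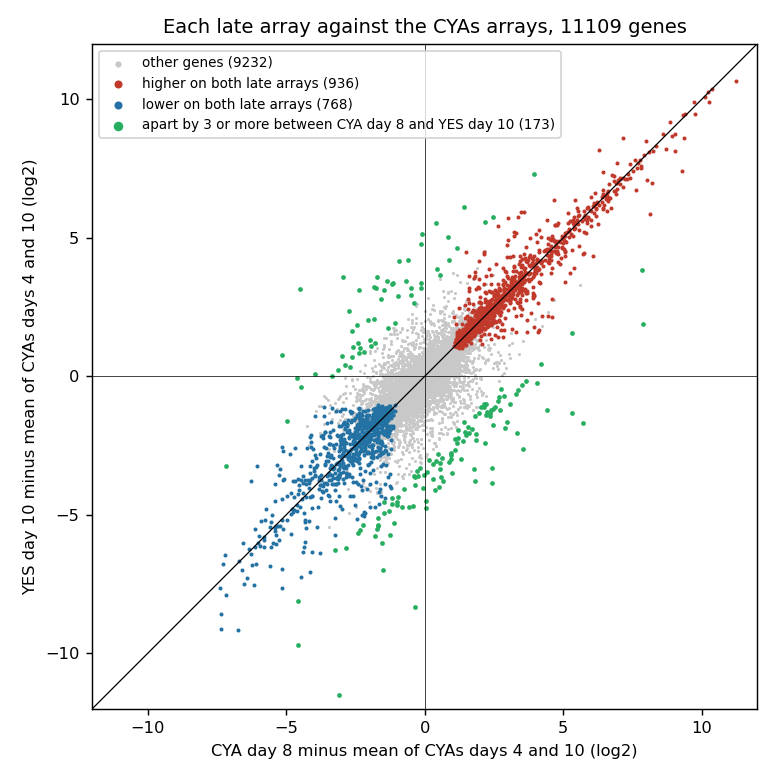
Difference of CYA day 8 (horizontal axis) and of YES day 10 (vertical axis) from the mean of CYAs days 4 and 10, in log2 units, with 1 point per gene and the line of equal differences. Genes higher (red) or lower (blue) on both late arrays lie along the line, and the 173 genes at least 3 log2 units apart between the late arrays (green) lie off it. The red and blue counts leave out the genes shown in green.

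The genes higher on both late arrays had a median level of -3.86 on CYAs day 4 and -3.35 on CYAs day 10, against -0.38 on CYA day 8 and -0.28 on YES day 10. Those lower on both late arrays stood at -1.09 and -1.18 on the CYAs arrays and at -3.97 and -4.07 on the late arrays. The first group thus went from below the median of all genes, which lay between -1.93 and -1.83 on every array, to well above it, and the second did the reverse. The medians of the late minus CYAs difference were 2.71 and -2.36. A gap of at least 3 log2 units (8-fold) was found for 258 genes that were higher (2.32%) and 111 that were lower (0.999%). At the edge of the definition, AN12389 was just inside with a gap of 1.003 and AN5116 just outside with 0.9993, and the lower genes AN5169 and AN0902 had gaps of -1.002 and -0.9995. Of the 940 genes 25 were dim on at least 1 of the 4 arrays, and of the 788 genes 5 were, in each case on the side where they were low.

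On the 4 arrays that did not define the groups, the median levels lay between the extremes, while many single genes did not. For the genes higher on the late arrays, the median gene on CYA day 4 had covered 0.403% of the distance from the CYAs mean to the late mean, on YES day 4 5.78%, on CYA day 10 21.7% and on CYAs day 8 38.7%. For those lower on the late arrays the values were 17.3%, 22.8%, 56.9% and 13.4%. CYA day 10, the older sample of the same medium, was therefore nearer to the CYAs arrays than to CYA day 8 in the first group, and past the midpoint in the second. At or within the CYAs levels were 649 of the 940 higher genes on CYA day 4 and 551 on YES day 4, and 404 of the 788 lower genes on CYAs day 8. In the first group 87 of 940 genes on CYA day 10 were at or above the lower late level, and in the second 167 of 788 were at or below the higher late level. CYA day 10 lay on the slide of the CYAs arrays, so its age and its slide cannot be told apart.

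Within slide 1, 877 of the 940 higher genes were at least 1 log2 unit higher on CYA day 8 than on CYA day 4 (93.3%, against 18.5% of all genes), and 825 were so on YES day 10 against YES day 4 (87.8%, against 16.1%). Both held for 795 (84.6%, against 11.0% of all genes). Of the 788 lower genes, 638 were lower by as much on CYA day 8 than on CYA day 4 (81.0%, against 17.4%) and 591 on YES day 10 than on YES day 4 (75%, against 16.6%), and both held for 487 (61.8%, against 8.86%). These differences use the same late arrays that chose the genes, so the shares are a description. Most of the higher genes thus stood at least 1 log2 unit lower in young colonies of the same medium on the same slide. A smaller share of the lower genes stood higher there by as much.

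**Figure D2:**
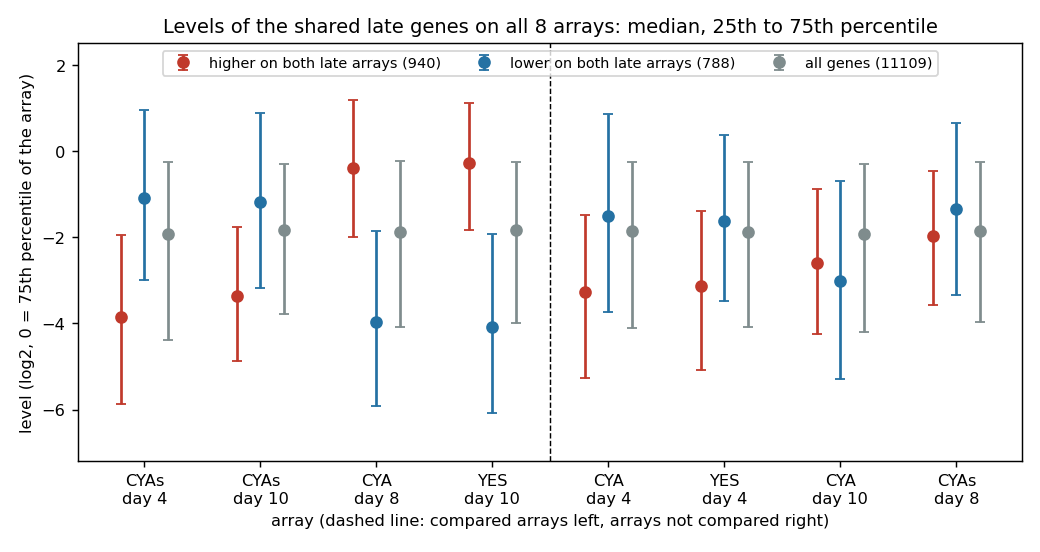
Median level (points) and 25th to 75th percentile (bars) of the 940 genes higher on both late arrays, the 788 genes lower on both and all 11109 genes, on each of the 8 arrays; levels are log2 with 0 at the array's 75th percentile. The 4 arrays left of the dashed line chose the 2 groups. To its right, the higher genes stood at -3.27 on CYA day 4 and at -1.97 on CYAs day 8, and the lower genes fell between their 2 extremes on CYA day 10, at -3.01.

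The gene with the largest gap was AN6000, which the reference table names nscA and which is the polyketide synthase gene of the asperthecin cluster. Asperthecin is an anthraquinone pigment. The level of nscA was -6.22 on CYAs day 4 and -5.21 on CYAs day 10, against 5.51 on CYA day 8 and 4.95 on YES day 10, a gap of 10.16. On the other arrays it was -5.20 on CYA day 4, -5.21 on YES day 4, 3.53 on CYA day 10 and 3.71 on CYAs day 8. All 4 arrays at or above 3.53 are from day 8 or later, and CYAs day 10 is the only array of that age that stayed as low as the day 4 arrays. The other 2 genes of the cluster shared the pattern. AN6001 (nscB) was at -2.20 and -1.38 on the CYAs arrays and at 4.48 on CYA day 8 and 3.73 on YES day 10, and AN6002 (nscC) at -3.56 and -3.58 against 2.14 and 0.87. So all 3 of 3 measured genes were higher, with a median difference of 5.90, where 8.46% of all genes were higher and the median of all genes was -0.15. Their neighbour AN6003 was higher as well, and these 4 form a run of adjacent genes on chromosome I.

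Next to nscA, 14 genes with no symbol in the reference table had the largest gaps, from 9.70 (AN7957) and 9.38 (AN2330) down to 7.71 (AN0592). AN2330 had levels of -4.97 and -3.91 on CYAs days 4 and 10, 5.84 on CYA day 8 and 5.47 on YES day 10, so it went from well below the median gene to among the brightest. AN2400 was at -8.18 and -6.09 on the CYAs arrays and at 3.11 and 3.12 on the late arrays. Among these 14 genes the late arrays differed by at most 0.76 (AN3488). Only AN3488 approached its late level on CYA day 10, with 3.12 there against 4.20 on CYA day 8 and 3.44 on YES day 10. AN6020 had the lowest CYA day 10 level of the 14, at -4.48, beside -4.52 on CYAs day 10. The other genes of the 15, AN7613, AN3631, AN11856, AN7235, AN10931, AN8052, AN3850 and AN11035, had gaps of 7.77 to 9.23.

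Of the 940 higher genes 42 had a symbol. After nscA the largest gap was that of ksrA (AN1165), with -1.56 and -1.80 on the CYAs arrays against 4.99 on CYA day 8 and 4.74 on YES day 10. The chitin synthase gene chsD (AN1046), whose product builds the main fibre of the cell wall, was at -4.15 and -3.00 against 3.03 and 2.96, a gap of 5.95. On CYA day 4 and YES day 4 chsD was at -3.50 and -3.93, on CYA day 10 at -1.17 and on CYAs day 8 at 0.93. pdeA (AN0829), named for a cyclic nucleotide phosphodiesterase, which breaks down the messenger cAMP, was at -3.99 and -3.09 against 2.74 and 2.65. For these 3 genes the late arrays lay within 0.25 of each other, while each was 5.73 to 6.31 above the CYAs arrays. The list of chitin and glucan synthase genes does not hold chsD. Of its 9 members 1 was higher (chsG) and none lower, and its median difference was -0.55, so chsD does not describe that list.

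Genes of nitrogen and peptide use followed. prnD (AN1731), which encodes proline dehydrogenase, the first step of proline breakdown, was at -2.91 and -3.80 on the CYAs arrays and at 1.43 on CYA day 8 and 2.12 on YES day 10. The oligopeptide transporter gene optB (AN7597) was at -4.81 and -4.48 against 0.07 and 0.82. In the list of proline, purine, amide and ammonium genes prnD was the only 1 of 9 that was higher, and 2 were lower (hxA, which is named for xanthine dehydrogenase, and AN8777), so the list as a whole did not share its direction. The proline permease gene prnB (AN1732) was at -2.06 and -3.12 on the CYAs arrays against -1.70 and -0.42 on the late arrays and did not reach a gap of 1. isn1 (AN3222) and pigc (AN11232) completed the 10 largest, with gaps of 3.87 and 3.89.

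The list of autolysis and extracellular hydrolase genes had 4 of 5 members higher and a median difference of 2.66. AN5558 was at 1.40 on CYAs day 4 and 0.06 on CYAs day 10, against 5.18 on CYA day 8 and 5.72 on YES day 10. It was already at 4.64 on YES day 4 and at -0.35 on CYA day 4, so the media differed when young. The metalloprotease gene mep20 (AN7962) was at -3.04 and -1.50 against 1.03 and 1.55. AN4871 and AN1502 passed the threshold narrowly, with gaps of 1.02 and 1.03. The fifth member, the chitinase gene chiA1 (AN8241), was in neither group and lay the other way, at -1.79 and -3.43 on the CYAs arrays and -4.04 and -4.39 on the late arrays.

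**Figure D3:**
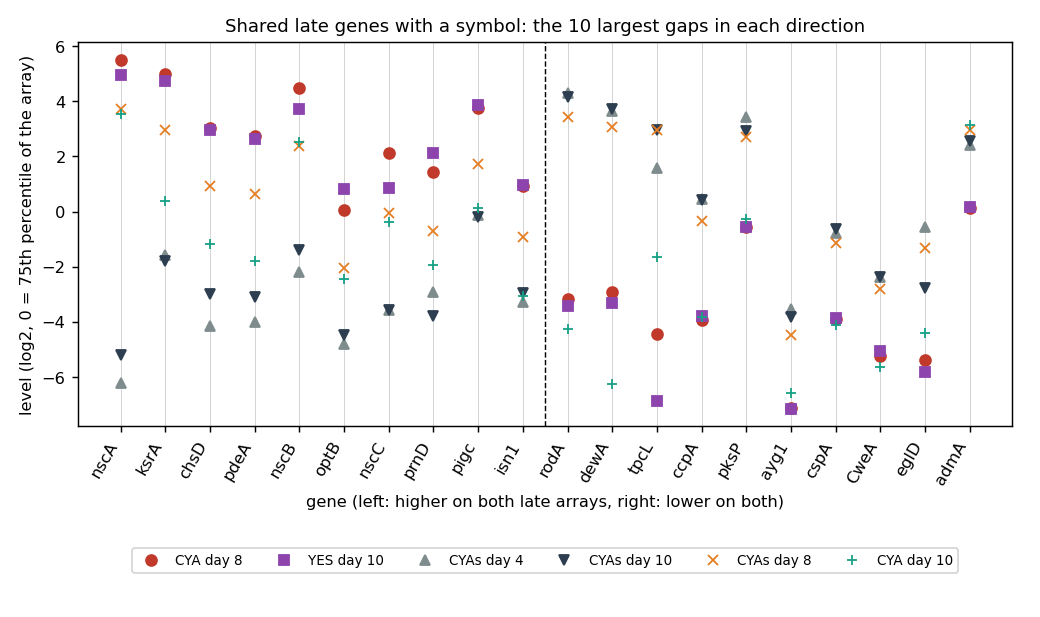
Levels (log2, 0 at the array's 75th percentile) of the 10 genes with a symbol and the largest gap in each direction, on CYA day 8, YES day 10, the 3 CYAs arrays and CYA day 10. The late arrays lie away from CYAs days 4 and 10 for each gene, and furthest from each other for tpcL and nscC, and CYAs day 8 lies between them for all 10 higher genes.

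The mating-type genes, which encode the transcription factors that set mating identity and of which this self-fertile fungus carries both, were low everywhere and less so on the late arrays. MAT1 (AN2755) was at -6.98 and -4.97 on the CYAs arrays against -2.48 on CYA day 8 and -2.32 on YES day 10, and MAT2 (AN4734) at -6.25 and -4.14 against -2.83 and -2.95. preA (AN7743), a pheromone receptor gene, was at -3.85 and -2.43 against -0.85 and -0.84. In the list of sexual development and mating genes these 3 of 10 were higher, 2 were lower (AN5170 and AN1848), and the median difference was -0.32. The second receptor gene preB (AN2520), at -0.56 and -0.22 against -0.73 and -0.49, and the regulator genes nsdD, steA and esdC were in neither group. The pheromone gene ppgA (AN5791), outside the list and named after its values were seen, was at -3.85 and -3.05 against -1.003 and -0.67.

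The mitosis genes below were likewise picked out after their values were seen and are no list. nimE (AN3648), the mitotic cyclin, was at -0.75 and -1.57 on the CYAs arrays and at 0.76 and 0.62 on CYA day 8 and YES day 10. The polo kinase gene plkA (AN1560) was at -0.70 and -1.32 against 1.32 and 1.35. uncB (AN6863), named for a kinesin motor, was at -1.49 and -2.07 against 1.12 and 1.12, and eb1 (AN2862), named for a protein of growing microtubule ends, at 0.44 and 0.11 against 1.66 and 1.73. On CYA day 10 these 4 were at or below the lower CYAs level or within 0.1 of it, from -2.28 (nimE) to -0.41 (eb1). None of the 5 septin genes, whose products form rings at sites of cell division, was in either group (median difference 0.24). The housekeeping lists held almost no genes of either group, where 8.46% of all genes were higher and 7.09% lower. The lists of 7 and 4 genes and the 5 septin genes are too short for an absence to be read against those shares. For the longer lists a departure from those shares was not tested. None of 16 proteasome genes, 14 splicing factor genes, 12 peroxisome genes, 18 amino acid synthesis genes, 7 ribosomal protein genes or 4 core histone genes was in either group, and their median differences lay between -0.33 and 0.13. In ribosome biogenesis 1 of 26 genes (rok1) was higher, and in the ergosterol pathway 1 of 17 (erg9, squalene synthase).

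The genes lower on both late arrays were headed by rodA (AN8803), the main hydrophobin of the conidial surface. Its level was 4.30 on CYAs day 4 and 4.15 on CYAs day 10, against -3.17 on CYA day 8 and -3.41 on YES day 10. On the other arrays it was 2.00 on CYA day 4, 4.51 on YES day 4, 3.43 on CYAs day 8 and -4.25 on CYA day 10. rodA was thus high on all 5 arrays that are of day 4 or of CYAs, and low on the 3 old arrays of the other media. dewA (AN8006), a second hydrophobin of the spore wall, was at 3.63 and 3.72 against -2.92 and -3.30, and was lowest on CYA day 10 (-6.24).

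In the list of conidium and conidiophore markers 6 of 12 measured members were lower and none was higher, with a median difference of -2.27, where 7.09% of all genes were lower. Besides rodA and dewA these were AN1837 (1.69 and 1.55 against -3.96 on CYA day 8 and -5.22 on YES day 10), AN6401 (-0.53 and -1.84 against -6.55 and -6.58) and AN0940 (-0.68 and -0.75 against -2.81 and -2.41), and pksP (AN8209), the synthase of the conidial pigment, at 3.42 and 2.92 against -0.56 on both late arrays. The members known by symbol that were lower are thus genes of the surface and pigment of the finished spore. Summed over the 12 markers on the linear scale and put back on the log2 scale, the list stood at 5.86 and 5.62 on the CYAs arrays, 2.68 on CYA day 8 and 0.99 on YES day 10, and all 12 were above background on every array. The CYA day 8 sum came mostly from catA (AN8637), a member in neither group, which alone stood at 2.28 there. On YES day 10 catA was at -1.86, so the difference between the 2 late sums rests mostly on this gene. The amount of spores in each sample is not given by the labels, and its part in the other lower genes was not tested. The regulators that drive conidium formation were in neither group. brlA (AN0973) was at -2.76 and -3.32 on the CYAs arrays and at -3.68 and -3.20 on CYA day 8 and YES day 10, abaA (AN0422) at -4.25 and -3.37 against -4.78 and -4.32, and wetA (AN1937) at -3.67 and -2.42 against -4.62 and -5.24. The pigment laccase gene yA (AN6635) was at -1.73 and -1.60 against -2.69 and -3.85, a gap just under 1.

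Other lower genes with a symbol carry names of cell wall and spore proteins. ccpA (AN10109), named for a conidial cell wall protein of A. fumigatus, was at 0.45 and 0.44 against -3.94 and -3.77. cspA (AN3032) and CweA (AN1827) lay at -0.79 and -0.64 and at -2.35 and -2.38 on the CYAs arrays, and at -3.90 and -3.86 and at -5.23 and -5.04 on the late arrays. ayg1 (AN9171), a pigment gene in A. fumigatus, was dimmer throughout, at -3.53 and -3.83 against -7.11 and -7.15. For each of these 4 genes the late arrays lay within 0.2 of each other, and CYAs day 8 was within 1 log2 unit of the other CYAs arrays. eglD (AN1602) and admA (AN2810) had gaps of -2.61 and -2.24, and admA was not low on CYA day 10 (3.15).

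Of 15 measured regulators upstream of conidiation and of metabolite clusters, 12 were in neither group, as were 9381 of all 11109 genes. The other 3 were lower (20%, against 7.09% of all genes), namely flbD (AN0279, a Myb-type regulator of conidiation), AN8129 and AN2059. None was higher, where 8.46% of all genes were. AN2059 was at 0.94 and 0.92 on the CYAs arrays and at -1.98 on CYA day 8 and -1.52 on YES day 10. The velvet gene veA (AN1052) was at -0.44 and 0.83 against -1.85 and -0.77. laeA (AN0807), a global regulator of clusters, was at -1.35 and -1.52 against -1.59 and -1.78. These are transcript levels, and the part of either gene in the cluster differences below was not tested.

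The sterigmatocystin cluster was the list with the most lower genes. Sterigmatocystin is a polyketide toxin, the precursor of aflatoxin in related species. All 21 of 21 measured members were lower, with a median difference of -5.37. Its polyketide synthase gene AN7825 was at 2.91 on CYAs day 4 and 4.18 on CYAs day 10 against -1.86 on CYA day 8 and -2.05 on YES day 10. On the remaining arrays AN7825 was at 4.51 on CYA day 4, 2.13 on YES day 4, 4.19 on CYAs day 8 and -0.56 on CYA day 10. Among the members AN7806 had the largest gap (3.68 and 3.23 against -3.91 and -5.14) and AN7811 the smallest (-5.05 and -3.00 against -6.98 and -7.74). In reference order the genes from AN7804 to AN7825 formed an unbroken run of 24 lower genes on chromosome IV, which also holds AN11013, AN11017 (tpcL) and AN11021. On both late arrays AN7822 remained well above the median of all genes, at 2.15 and 2.20, so the cluster's members did not end at 1 common level.

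**Figure D4:**
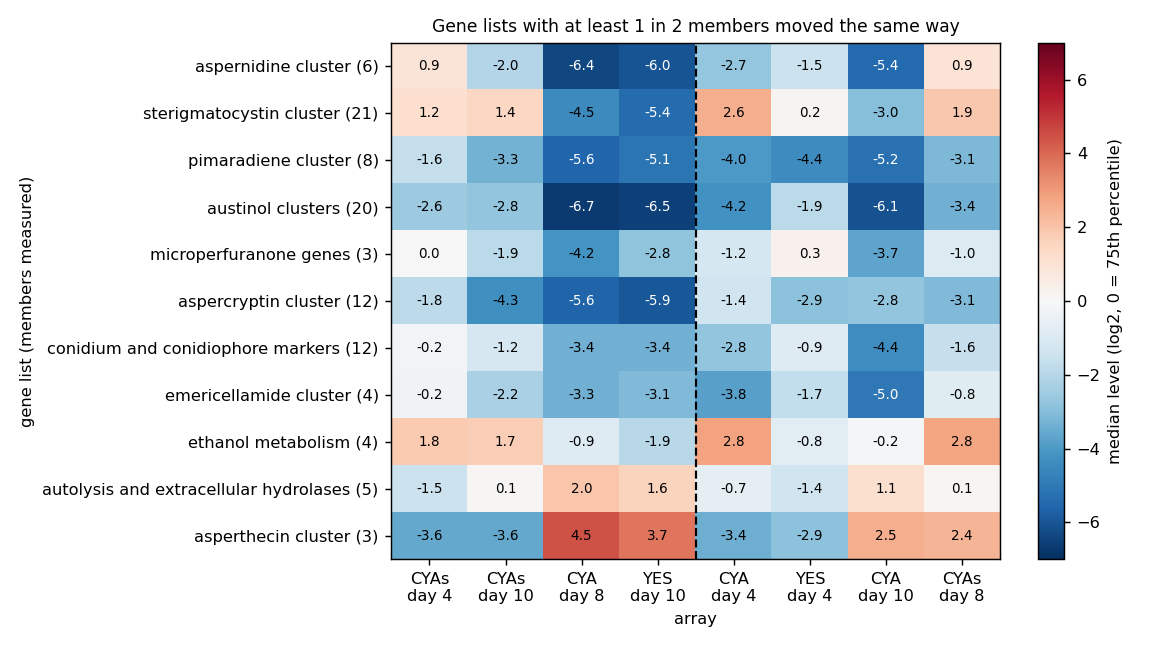
Median level (colour and number, log2 with 0 at the array's 75th percentile) of each gene list in which at least 1 in 2 measured members moved the same way, on the 4 compared arrays (left of the dashed line) and the other 4. Of these 11 lists 9 have lower medians on both late arrays than on CYAs days 4 and 10, and the asperthecin and autolysis lists have higher ones.

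Beyond it, 6 metabolite lists had at least 1 in 2 members lower on both late arrays and none higher. In the aspernidine list all 6 of 6 were lower, with a median difference of -5.91, and the polyketide synthase gene AN3230 was at 2.79 on CYAs day 4 and -1.83 on CYAs day 10 against -6.07 on CYA day 8 and -5.54 on YES day 10. The 2 CYAs arrays themselves were apart by more than 4 log2 units in this gene, and CYA day 4 (-1.85) lay with CYAs day 10. In the austinol lists, which are genes of a meroterpenoid pathway at 2 separate loci, 17 of 20 were lower, with a median of -2.84, and both AN8382 (-1.10 and -1.03 against -6.87 and -7.21) and AN9253 (-1.66 and -1.98 against -7.61 and -7.72) reached low levels. Against the CYAs arrays both loci moved alike. AN8379 to AN8384 on chromosome V were a run of 6 and AN9246 to AN9253 on chromosome VIII a run of 8. Within the media the median difference from day 4 was -1.50 on CYA and -4.085 on YES. The median of these genes was already -4.21 on CYA day 4, against -2.56 on CYAs day 4.

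The pimaradiene list, of a diterpene cluster, had 7 of 8 lower (median -3.02), which form a run on chromosome VII from AN1593 to AN1599. On day 4 AN1595 was at -3.89 on CYA and -4.50 on YES, against -0.63 on CYAs, so CYAs day 4 was high among the young arrays. The aspercryptin list had 7 of 12 lower (median -2.45), with AN7881 at -1.09 and -4.54 on the CYAs arrays against -6.69 and -8.24, and the microperfuranone list 2 of 3 (median -2.52). In the emericellamide list 2 of 4 were lower, AN2547 and AN2548, with gaps of -1.07 and -1.15. Its level on CYA day 4 was as low as on the late arrays: AN2548 was at -4.80 on CYA day 4, -4.70 on CYA day 8 and -4.27 on YES day 10. Within CYA, day 8 was above day 4 by a median of 0.30 in this list.

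In the other cluster lists fewer than 1 in 2 members were in either group. Of 12 monodictyphenone genes 1 was lower (AN0146, 8.33%) and of 8 dba genes 2 (25%), where 7.09% of all genes were lower. Of 5 orsellinic acid, 8 asperfuranone, 8 aspyridone and 3 terrequinone genes none was in either group. These 4 lists are too short for an absence to be read against the shares of all genes. The monodictyphenone genes show how the reference matters, since they were lower on both late arrays than on day 4 of the same medium, with median differences of -2.68 on CYA and -2.85 on YES, while the late minus CYAs median was 0.49. For the dba genes the differences within the media were -4.04 and -3.47, and that from the CYAs arrays was -1.28. In both lists the distance from the young arrays of the same medium was therefore wider than that from the CYAs arrays.

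A few members of other lists were also lower, where 7.09% of all genes were lower. In the list of ethanol metabolism 2 of 4 were lower. AN8979 was at 2.13 and 3.11 on CYAs against -2.51 on CYA day 8 and -5.02 on YES day 10, and AN8978 at -2.25 and -1.32 against -3.70 and -4.48. Both belong to a run of 4 lower neighbours on chromosome VII, AN8978 to AN8981. In the list of iron and siderophore genes 2 of 8 were lower, AN5823 and the siderophore transporter gene mirB (AN8540), which was at -0.46 and -0.87 against -4.76 and -2.77. mirB was at 3.67 on YES day 4, the highest of its 8 levels. The zinc transporter gene zrfA (AN8337) was likewise highest on YES day 4 (-0.66) and lay at -4.96 and -4.69 against -6.04 and -6.62, and the other 3 of 4 zinc transport genes were in neither group.

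Neighbouring genes moved together more often among the lower genes. Runs of at least 4 adjacent genes of the same group held 109 of the 757 lower genes with a place in the reference order (14.4%, in 18 runs) and 27 of 881 higher genes (3.06%, in 6 runs). Besides the clusters above, the lower runs include AN3252 to AN3257 on chromosome VI, with AN3253 at 1.23 and -0.46 on CYAs against -6.89 and -6.39, and AN8968 to AN8972 on chromosome VII, where AN8972 was at 4.60 and 5.36 against -2.23 and -1.47. The longest higher runs lie close together on chromosome VI. They are AN9223 to AN11193 with 6 genes, at medians of -8.21 and -5.84 on the CYAs arrays against -2.47 on CYA day 8 and -1.62 on YES day 10, and AN9231 to AN9235 with 5 genes, at -6.87 and -5.31 against -0.94 and -0.45. The value of -8.21 lies below the lowest signal well above background on CYAs day 4 (-7.71). Only 4 genes lie between these runs, so that of the 15 genes from AN9223 to AN9235, a stretch singled out after its values were seen, 13 were higher on both late arrays and the other 2 were in neither group. A bright higher run is AN8584 to AN11097 on chromosome III, at medians of -7.02 and -5.18 against 0.96 and 1.30. On day 4 of CYA and YES this run already stood at -1.6 and -1.745, so CYAs day 4 was low among the young arrays. By chromosome, 6.87% of the lower genes lay on chromosome I, which holds 12.6% of all genes with a place, and 11.0% on chromosome VIII, which holds 16.8%. Larger shares of the lower than of all genes lay on chromosomes V (15.5% against 10.47%), II (17.6% against 13.5%) and VII (18.6% against 15.0%). No such gap was as wide for the higher genes, whose shares stayed within 1.5 percentage points of all genes on each chromosome.

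The genes that set the 2 late arrays apart were taken at a stricter threshold than the shared groups. A difference of at least 3 log2 units was found for 114 genes higher on CYA day 8 (1.03%) and 59 higher on YES day 10 (0.531%), with 1 array on each side. At 1 log2 unit, the threshold of the shared groups, 1507 genes (13.6%) differed between the late arrays. At a gap of 3 the shared groups held 258 higher and 111 lower genes. Medium and age differ together here (CYA at 8 days, YES at 10 days) and cannot be told apart. Of the 114 genes 18 were also in the lower group and none in the higher group, and of the 59 genes 4 were in the higher and 2 in the lower group. The median gene of the 114 was at 1.04 on CYA day 8 and -2.71 on YES day 10, near the CYAs levels (-0.01 and 0.47) on the first and below them on the second. For the 59 the medians were -4.82 and -0.97, with -3.41 and -3.89 on the CYAs arrays. In both sets the median on YES day 10 lay further from the CYAs medians than the median on CYA day 8 did.

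AN7836 had the largest difference. It was bright on 7 of 8 arrays, from 3.04 on CYA day 8 to 6.55 on CYAs day 10, and at -5.38 on YES day 10, having been at 3.98 on YES day 4. AN7865 followed with 0.82 on CYA day 8 and -7.14 on YES day 10, and was between -0.88 and 1.98 on the other 6 arrays. AN5056, at 4.26 against -1.46, was also low on CYAs day 10 (-0.01) and CYA day 10 (-0.22), so its 3 lowest levels are those of the day 10 arrays. AN9310 (-0.23 against -7.62), AN6668 (2.91 against -3.76), AN7866 (0.13 against -6.14) and AN5551 (0.02 against -6.16) differed by 6.18 to 7.40 between the late arrays, and all 4 were at -3.38 or lower on both YES arrays.

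AN7349, a marker of fruiting bodies and Hülle cells, was at 6.52 on CYA day 8 and 0.52 on YES day 10. It was at -5.33 and -5.41 on day 4 of CYAs and YES, -1.25 on CYA day 4, 2.61 on CYAs day 10, 4.54 on CYAs day 8 and 6.69 on CYA day 10. The gene was thus higher on both late arrays than on day 4 of the same medium, by 7.77 on CYA and 5.93 on YES, yet CYAs day 10 lay between the late arrays, which kept it out of the shared group. None of the other 5 genes of that marker list was higher on both late arrays, 1 was lower (AN5028), and AN7388 was at 0.60 and 2.91 on the CYAs arrays against 1.58 and 0.69. The summed level of the 6 markers was 3.08 and 4.51 on the CYAs arrays, 6.60 on CYA day 8 and 2.55 on YES day 10. On CYA day 8 AN7349 alone stood at 6.52, so the sum there is mostly that gene. The place of CYA day 8 above CYAs day 10 therefore does not describe the list as a whole. The share of fruiting bodies in each sample was not measured, and its part in the differences was not tested.

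The spore catalase gene catA (AN8637) was the only gene with a symbol at least 3 log2 units higher on CYA day 8 (2.28 against -1.86), and was at 3.14 and 2.57 on the CYAs arrays and 3.70 on CYA day 10. It ends a run of 5 adjacent genes, AN8637 to AN8641, all at least 3 log2 units higher on CYA day 8, with a median of 2.28 against -1.89. catA parts from the hydrophobin genes rodA and dewA of the same list, which were low on both late arrays. It was among the 6 of 12 list members in neither group, as were wetA, yA and AN7539. AN7539 was at 0.15 and -3.58 on the CYAs arrays against -3.56 on CYA day 8 and -1.51 on YES day 10. In the penicillin list AN2622 was at -1.43 on CYA day 8 and -6.25 on YES day 10, and AN2623 was higher on CYA day 8 by 2.38. AN2621 was not well above background on YES day 10. All 3 were highest on CYA day 10.

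On the YES side, AN9220 had the largest difference, with -4.30 on CYA day 8 and 3.36 on YES day 10, and its neighbour AN9219 was at -6.51 and 0.03. Both were lower on CYA day 8 than on CYA day 4 and higher on YES day 10 than on YES day 4. They lie close to the stretch of chromosome VI described above, AN9223 to AN9235, and within that stretch AN9230, AN11202 and AN11194 formed a run with CYA day 8 minus YES day 10 differences of -3.28 to -4.20. Of these, AN11202 and AN11194 were still in the shared higher group, AN11194 with -8.51 and -5.61 on the CYAs arrays against -3.11 and 0.24.

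The other run of 5, from AN6447 (tpcA) to AN6451, holds 3 of the 7 genes of the list for cichorine, a phytotoxin, and the neighbours AN6450 and AN6451, which are not in the list. tpcA was at -2.90 on CYA day 8 and 1.62 on YES day 10, and at 2.25 and 1.95 on day 4 of CYA and YES. AN6448 was at -3.56 and 1.04 and AN6450 at 0.16 and 4.72. Of the other list members AN6444 differed by -2.77 (CYA day 8 minus YES day 10), while AN6443, AN6445 and AN6446 differed by -0.51, 0.21 and -0.44. The level of tpcA was thus similar on day 4 of both media, and on CYA day 10 (-2.68) it was near that of CYA day 8. AN6932, in the list of purine and nitrogen genes, was at -5.92 on CYA day 8, 0.00 on YES day 10 and -5.68 on CYA day 10, and AN7463 of the same list was at -3.99 against -0.80. The siderophore gene sidI (AN0609) was at -7.15 against -4.10, and at -1.03 on YES day 4. AN3354, AN0418, AN6869, AN7515 and AN8416 completed the 8 largest differences on this side, with CYA day 8 minus YES day 10 between -5.50 and -5.11. AN7515 was not well above background on 1 of the 4 compared arrays.

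**Figure D5:**
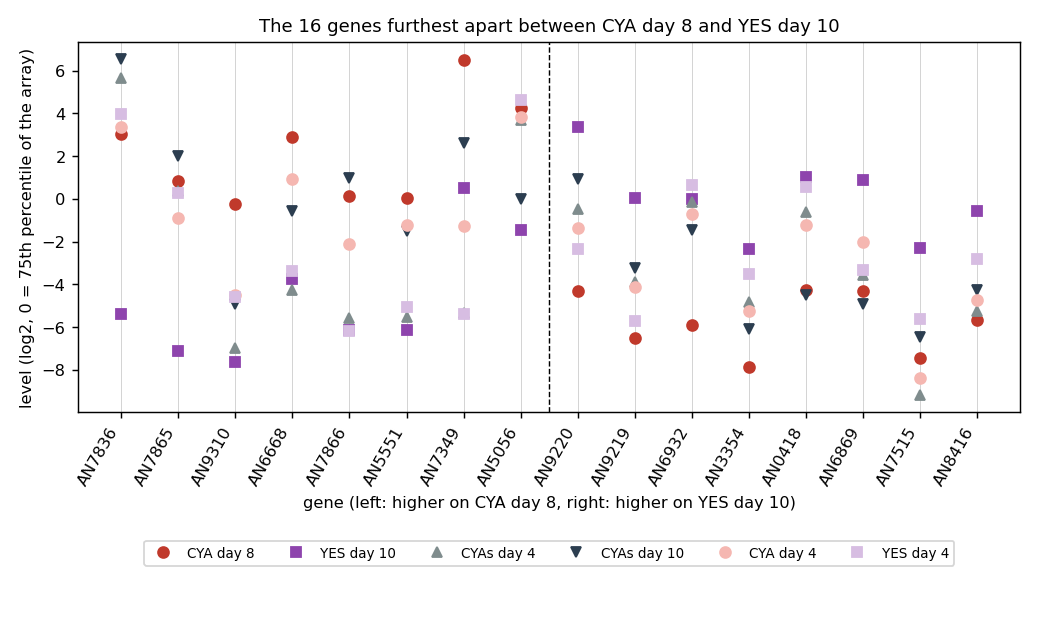
Levels (log2, 0 at the array's 75th percentile) of the 8 genes with the largest difference in each direction between CYA day 8 (red circles) and YES day 10 (purple squares), with the day 4 arrays of both media (pale symbols) and CYAs days 4 and 10 (triangles). AN7836 and AN7865 stand low on YES day 10 alone, and AN7349 is high on CYA day 8 at 6.52.

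Young arrays of the same media were mostly not apart in the same way. Of the 114 genes 28 were at least 1 log2 unit higher on CYA day 4 than on YES day 4 (24.6%, against 8.71% of all genes) and 28 were lower by as much. Of the 59 genes 28 were already higher on YES day 4 (47.5%, against 9.09%) and 9 were lower. On CYA day 10, the other old array of that medium, 94 of the 114 and 55 of the 59 genes differed from YES day 10 by at least 1 log2 unit in the same direction as CYA day 8 did. Those comparisons share YES day 10 with the choice of the genes and are a description.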

How the data were processed

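Total RNA of 8 whole-colony samples was measured on 1-colour arrays, 1 per medium and day. The intensity values of each spot were made with Agilent Feature Extraction 10.5.1.1, per the file headers. A table deposited by the authors gives 1 log2 value per gene; limma and RMA appear in the submitters' processing notes, without version or role, so its normalization is unknown here, and it was used only as an alternative.

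Levels were log2 processed signals minus the array's 75th percentile, averaged over the probes of a gene (outlier spots left out; the median SD between probes was 0.107). Genes above background on fewer than 2 arrays were left out (18 of 11127). RefSeq's table of assembly ASM1142v1 (strain FGSC A4) matched 10413 of the 11127 genes and supplied symbols and neighbour order. Alternatives used limma 3.58.1 in R 4.3.3, and counting was done in Python 3.11.15 and checked on simulated data. The members, the 32 gene lists by locus tag and the 13 lists by reference symbol were chosen with earlier results of these data known. The symbol lists were added with the files in hand, and 3 wrongly entered tags were taken out of the monodictyphenone list after their values were seen. Named genes are the 15 largest gaps in each direction, the 10 largest with a symbol, the 8 largest differences between the late arrays and the 5 with a symbol, members of moved lists and of runs; those named otherwise are marked in the text. Medium, day and slide were compared without tests, since the arrays were chosen by their values. Alternatives tried were other values, scaling, probe summaries, filters, thresholds and reference arrays.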

Additional observations from a re-analysis of the deposited data

Results flagged for a closer look

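The CYAs day 8 array, which is not among the 4 compared arrays, carried 0.215 of the raw CYA day 8 signal (median of the 180 genes that exceeded both compared CYAs arrays at least 16-fold on CYA day 8), above the 0.00817 on CYAs day 4 and 0.0119 on CYAs day 10. Against YES day 10, 193 genes chosen in the same way gave a raw share of 0.133. Scaled to the 75th percentile of each array, the shares on CYAs day 8 were 0.217 and 0.213, and that on CYAs day 10 against CYA day 8 was 0.0251.

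The change from day 4 to the late array went opposite ways in CYA and YES, by at least 1 log2 unit in each, for 102 genes that were higher on CYA day 8 and lower on YES day 10, and for 52 genes the other way round. The difference between media was not tested, since each medium has 1 array per day. Among the named genes AN7865 (1.70 on CYA, -7.43 on YES), AN9310 (4.27 and -3.01), AN5551 (1.24 and -1.08) and coaT (AN1547, 1.05 and -1.96) were of the first kind. AN9220 (-2.95 and 5.71), AN9219 (-2.38 and 5.74), AN3354 (-2.59 and 1.17) and AN6869 (-2.32 and 4.23) were of the second.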

How the results depend on the processing

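No paired analysis was possible because each medium and day has 1 array, so replicate numbers pair nothing. The counts of 940 higher and 788 lower genes stayed within 1.5 times under the deposited log2 values (892 and 585), normexp with quantile normalization (825 and 532), median scaling (879 and 904), the median of probes, both filters on dim genes, CYAs day 8 added as a reference and the day 4 arrays of CYA and YES as reference (1089 and 789, of which 764 and 436 were the same genes). Day 4 of each late array's own medium, chosen after seeing the data, gave 1225 and 984. Median scaling shifted the median of all genes from -0.15 to -0.25, and it moved the split toward lower genes. A gap of 2 left 457 higher and 262 lower genes. Setting each late array against the mean of the CYAs arrays gave 1311 lower genes. Leaving out 1 array gave 1166 (without CYAs day 4) to 1775 (without CYAs day 10) higher and 1191 (without YES day 10) to 2274 (without CYAs day 4) lower genes, since fewer arrays have to be cleared. The lower counts without CYAs day 10 and CYA day 8 were 1202 and 1207. The 173 genes apart between the late arrays became 101 with normexp, and 482 at a difference of 2. Those higher on YES day 10 (59) became 32 in the deposited values, 23 with normexp and 180 at a difference of 2, and those higher on CYA day 8 (114) became 302 at 2; the causes of the first 2 were not tested. Of 540 list medians under the alternatives, 479 moved by no more than the spread over the 4 pairs of arrays, 60 moved further and 1 turned its sign, where sign turns were counted only among the 13 lists with a median of at least 1 in size; some lists nearer 0 changed sign as well. The 1 was the penicillin list, at -1.29, which ranged from -2.51 without CYAs day 4 to 0.051 without YES day 10. The sterigmatocystin median stayed between -5.80 and -4.15 and the asperthecin median between 4.51 and 6.31. Medians that moved by over 1.5 times were those of emericellamide (-2.94 to -0.50), dba (-3.75 to -0.42), pimaradiene (-3.74 to -1.64), aspercryptin (-3.49 to -1.38), austinol (-3.08 to -1.69), aspernidine (-7.59 to -3.94), microperfuranone (-3.87 to -1.95) and the conidium markers (-2.96 to -1.25). The ends nearer 0 came with normexp (aspercryptin, austinol, aspernidine, microperfuranone), with the day 4 reference (emericellamide, pimaradiene, conidium markers) or without CYAs day 4 (dba; emericellamide was then at -1.07). Dim genes limit how low a level can be read.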
